A study of Mus musculus with 27 samples.

Results

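Acetaminophen (APAP) and its regioisomer AMAP were compared in TAMH cells 2 h after dosing. The isomers differ in where the hydroxyl group sits on the ring, para to the amide in APAP and meta to it in AMAP. The comparison takes the 3 arrays of APAP cultures and the 3 arrays of AMAP cultures at 2 h, 6 of the 27 arrays of the series, and was made gene by gene over 19938 genes. TAMH is a hepatocyte line from mice transgenic for transforming growth factor alpha, so all cultures, controls included, carry that transgene. The groups used here are APAP at 2 mM, AMAP at 2 mM and control medium, each at 2, 6 and 24 h with 3 arrays, numbered 30, 31 and 32, which may be passages, although the labels do not say so. All cultures were confluent and kept without serum, with dexamethasone, insulin, transferrin and selenium, at passages between 25 and 35, in 2 dishes per treatment. Whether the arrays of a group came from separate cultures is not stated, so the p-values below measure the spread between these arrays, which may be technical.

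In mouse liver APAP is oxidised to a reactive quinone imine that uses up glutathione and binds protein, and AMAP has long been set beside it as a less liver-toxic counterpart. The title of the series names mitogen-activated protein kinases, the stress and growth kinases that switch on immediate early genes such as Fos, Jun, Egr1 and Atf3 within minutes. Replication-dependent histone genes work differently from most genes: they are transcribed in S phase, and their messages, which end in a stem-loop and not in a poly(A) tail, are degraded when DNA synthesis is interrupted. The protein p53 raises a further set of genes after DNA damage or nucleolar stress, among them Mdm2 and Btg2.

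The values are log2 signals, on which a difference of 1 is 2-fold. Array medians at 2 h lay between 6.92 and 6.98, and the standard error of the difference between APAP and AMAP had a median of 0.10 over all genes. Replicate arrays can differ together: for Jun, Dusp1 and Mdm2 the array of number 31 was the highest of its group with APAP, AMAP and control alike. On the first principal component of the 9 arrays at 2 h, which held 24.4% of the variance, the APAP arrays lay between 8.74 and 13.6, the AMAP arrays between -15.8 and 3.94 and the control arrays between -11.2 and 0.91. The APAP arrays thus stood apart on this component, and the ranges of AMAP and control overlapped.

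Histone genes made up most of the genes that fell with APAP relative to AMAP, and immediate early genes such as Atf3, Jun and Btg2 were prominent among those that rose. At a Benjamini-Hochberg adjusted p under 0.05 in limma, 52 of 19938 genes were called (0.261%), of which 19 were higher (0.0953%) and 33 lower (0.166%) with APAP. In all 52 the 3 arrays of APAP and the 3 of AMAP did not overlap. Over all genes tested 9.7% had all 3 APAP arrays above and 4.7% all 3 below the AMAP arrays. At least a 2-fold difference was seen in 16 called genes (0.0802%), 4 higher (0.0201%) and 12 lower (0.0602%). At an unadjusted p under 0.05 stood 1417 genes higher (7.11%) and 443 lower (2.22%). The difference was small for nearly every other gene: its 95% interval lay within ±1 log2 unit for 99.7% of all genes and within ±0.5 for 93.7%, around a median of 0.03. The split of the calls by direction moved with the setting. Centring the arrays on their medians, which put the median of all genes at -0.03, called 54 genes, 10 higher and 44 lower, whereas array weights called 83 higher and 49 lower and a random block for the number 54 higher and 50 lower. Leaving out APAP array 31 left 28 calls, APAP array 32 left 34 and AMAP array 32 gave 80, 40 in each direction, and without all arrays of number 30 or 31 there were 20 and 21. The compounds make 1 pair, compared at 3 times, and adjusting p over all genes and the 3 times together called 101 genes at 2 h, 53 higher and 48 lower. The plot of all genes shows the called genes against signal.

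**Figure D1:**
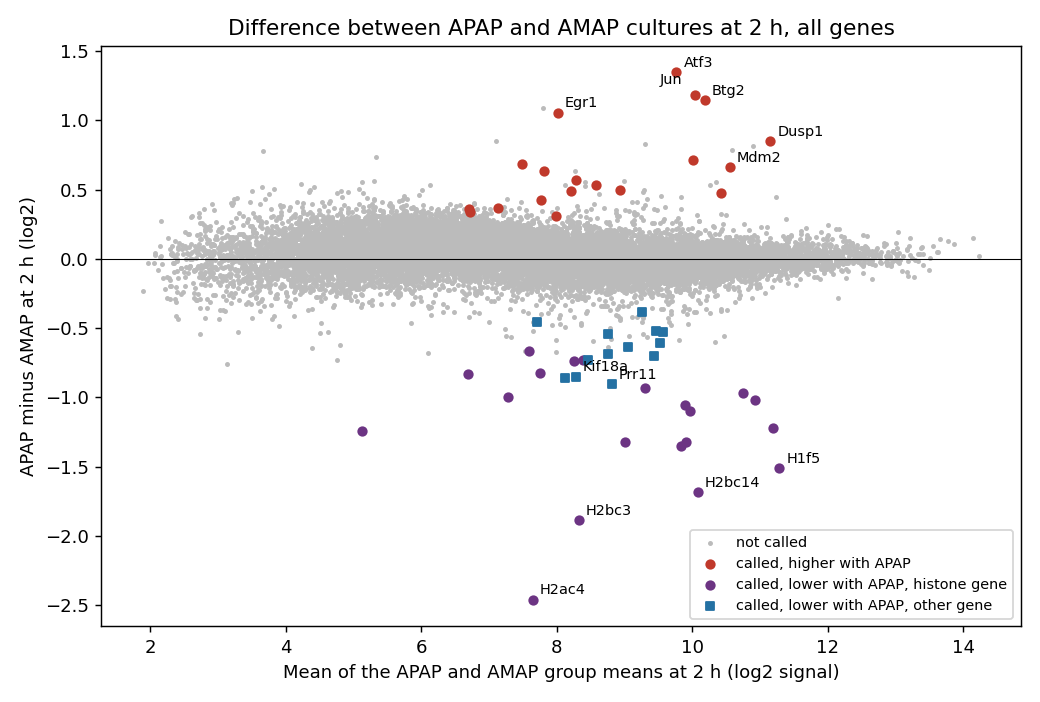
Difference between APAP and AMAP at 2 h (log2, vertical axis) against the mean of both group means (log2 signal, horizontal axis), 1 point per gene. Red points are the 19 genes called higher, purple points the 20 histone genes called lower and blue squares the 13 other genes called lower, and H2ac4, at -2.46, lies lowest.

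Of 26 replication histone genes measured, 16 fell with APAP relative to AMAP, against 0.166% of all genes, and none rose, and the differences of all 26 lay below 0, as did 38.9% over all genes. The median of the 26 differences was -0.88, against 0.03 over all genes, and in 25 of 26 all 3 APAP arrays lay below all 3 AMAP arrays, against 4.7% of all genes. By family, 3 of 4 H2ac genes (core histone H2A), 6 of 9 H2bc genes (H2B), 5 of 6 H4c genes (H4) and 2 of 4 H1f genes (linker histone H1) fell. None of the 3 H3c genes (H3) passed the test, although their differences lay between -0.49 and -0.62. A further 4 histone symbols outside the list were also lower, which makes 20 of the 33 lower genes. Of these 20, 14 lie on chromosome 13, which holds the largest histone cluster, 2 on chromosome 3, 3 on chromosome 11 and 1 on chromosome 6. Histone genes resemble each other closely in sequence, so a probe set may take up signal from its relatives, and the values of single members are uncertain for that reason.

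Promoters of H2B genes that fell are printed to show a feature they share that played no part in choosing them. The capitals mark the octamer ATTTGCAT, a motif known from H2B promoters. Each sequence is the 250 bases before the start of the gene in RefSeq (GRCm38.p6), printed 5′ to 3′ along the gene, at chr13:23746484-23746733 on the plus strand for H2bc3, chr13:21721794-21722043 on the plus strand for H2bc14 and chr3:96269450-96269699 on the plus strand for H2bc18.
H2bc3: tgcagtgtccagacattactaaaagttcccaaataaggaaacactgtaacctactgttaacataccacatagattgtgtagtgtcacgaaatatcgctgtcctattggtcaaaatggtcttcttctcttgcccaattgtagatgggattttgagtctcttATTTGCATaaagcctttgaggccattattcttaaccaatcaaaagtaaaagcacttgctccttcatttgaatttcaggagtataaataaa
H2bc14: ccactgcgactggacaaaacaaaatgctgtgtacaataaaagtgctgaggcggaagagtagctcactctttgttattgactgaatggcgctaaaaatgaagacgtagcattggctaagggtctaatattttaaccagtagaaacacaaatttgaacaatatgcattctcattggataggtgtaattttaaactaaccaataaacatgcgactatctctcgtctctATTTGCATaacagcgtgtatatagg
H2bc18: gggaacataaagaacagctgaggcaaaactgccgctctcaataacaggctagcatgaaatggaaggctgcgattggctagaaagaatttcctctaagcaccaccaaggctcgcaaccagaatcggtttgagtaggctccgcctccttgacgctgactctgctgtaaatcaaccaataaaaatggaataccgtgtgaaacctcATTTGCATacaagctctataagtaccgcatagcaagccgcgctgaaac
The octamer ends 83 bases before the start in H2bc3, 18 in H2bc14 and 41 in H2bc18. It was found in 5 of the 7 H2bc promoters at hand. These 5 were among the 6 H2bc genes that fell, H2bc9 being the one without it. Of 4 H2ac promoters 3 held it. One of these belongs to H2ac1, which did not pass the test, and the promoter of H2ac15, which fell, lacked it. No H4c or H1f promoter held it in this window, although members of both families fell. Among 27025 mouse promoters of the same length 1.61% held it on either strand, and in the histone genes measured here it was found in H2A and H2B promoters only. A CCAAT box, CCAAT on either strand, was in 18 of 22 histone promoters and in 34.5% of all promoters. Such a match describes the letters of the window and is not evidence of binding.

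H2ac4, an H2A gene, showed the largest difference of all genes. Its log2 signal was 6.42, 6.39 and 6.44 on APAP arrays, against 8.90, 8.88 and 8.86 on AMAP arrays and 8.89, 8.80 and 9.03 on control arrays. The APAP arrays lie more than 2 units below every AMAP and control array, and below the array medians. The difference was -2.46 ± 0.21 (SE; adjusted p = 9.12e-08). H2bc3 read 7.43, 7.41 and 7.31 with APAP, against 9.17, 9.26 and 9.39 with AMAP and 9.30, 9.54 and 9.38 in control, a difference of -1.89 ± 0.18 (adjusted p = 3.23e-07). H2bc14 read 9.05, 9.24 and 9.44 with APAP, against 10.90, 10.92 and 10.96 with AMAP and 10.93, 10.98 and 10.99 in control (-1.68 ± 0.17, adjusted p = 7.89e-07). In both H2B genes the AMAP and control arrays lay close together and all APAP arrays lay well below them.

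The linker histone gene H1f5 varied more among the APAP arrays. It read 10.18, 10.43 and 10.97 with APAP, against 12.05, 11.92 and 12.15 with AMAP and 12.09, 12.04 and 12.30 in control, and its difference of -1.51 ± 0.18 was called (adjusted p = 2.06e-05). Array 32 was the least reduced of the APAP arrays for H1f5, and also for H2bc14, H2ac15 and H1f1. H2ac15 (-1.35), H4c6 (-1.32), H2bc18 (-1.32), H2ac8 (-1.24), H1f1 (-1.22) and H4c4 (-1.02) each differed by over 1 unit, H2ac8 at a dim signal of 4.51 with APAP against 5.75 with AMAP. H2bc1, known as a testis-specific H2B gene, read 6.91, 6.70 and 6.74 with APAP, against 7.98, 7.52 and 7.85 with AMAP. H4c14 (-0.97), H2bc9 (-0.93), H4c8 (-0.83), H2bc8 (-0.74) and H4c3 (-0.73) completed the 16. The plot of histone genes by array shows the same arrangement in 8 of them, with APAP below and AMAP at the level of control.

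**Figure D2:**
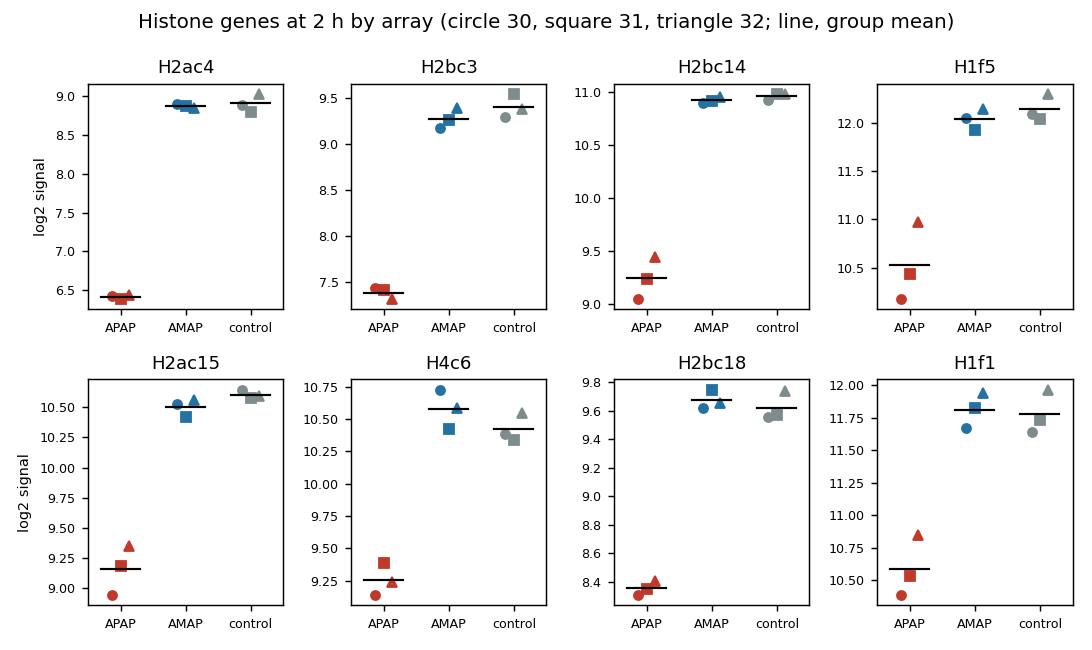
Log2 signal of 8 histone genes on each array at 2 h for APAP, AMAP and control (circle, number 30; square, 31; triangle, 32; line, group mean). In every panel the 3 APAP arrays lie below all AMAP and control arrays, for H2ac4 at a mean of 6.41 against 8.88 with AMAP and 8.91 in control.

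The 10 replication histone genes that did not pass the test also had negative differences. H2ac1 read 8.06, 7.90 and 8.09 with APAP, against 8.39, 8.23 and 8.53 with AMAP (-0.37, adjusted p = 0.062), H3c15 differed by -0.49 (0.084) and H4c9 by -0.37 (0.10). H1f3 was the one gene whose groups overlapped, since APAP array 32 read 8.07 and the others 6.86 and 6.76, against 7.44, 7.71 and 7.44 with AMAP. H1f2 (-0.60), H3c7 (-0.62), H2bc21 (-0.59), H3c4 (-0.50), H2bc4 (-0.31) and H2bc22 (-0.29) were the others. The 4 lower symbols outside the list were H2aw (-1.10) and H2bu2 (-0.83), annotated as H2A and H2B genes, H4f16 (-1.05) and the pseudogene H2bu1-ps (-0.67). The count of list members called stayed between 12 and 20 over the leave-one-out fits, with the lowest count when all arrays of number 31 were left out.

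Further histone signal comes from probe sets that list several genes and so name none. Of 40 whose listed genes are all histones, 25 were called lower with APAP and none higher in a fit over all 35557 probe sets, added after seeing the data, in which 0.222% were called lower and 0.0562% higher. Their median difference was -0.82, and the range from -1.45 to 0.14 shows that not every such probe set was lower.

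Genes of histone supply that are not histones themselves gave no call in 15 measured, against 0.261% of all genes. Their median difference was -0.03. Slbp encodes the protein that binds the histone stem-loop, and it read 10.70, 10.82 and 10.66 with APAP, against 10.72, 10.76 and 10.66 with AMAP and 10.36, 10.30 and 10.42 in control. Both compounds lay above control for Slbp and differed from each other by 0.01, with a 95% interval from -0.13 to 0.16. Npat, a coactivator of histone transcription, differed by -0.20 (interval -0.42 to 0.02), and Lsm11, part of the U7 particle that processes histone ends, by 0.17 (0.01 to 0.33). DNA replication and G1/S genes likewise gave no call among 38, with a median of 0.07. At the share called over all genes, no call does not set either list apart. Pcna, the sliding clamp of replication, differed by 0.06 (-0.12 to 0.23), Mcm2, a helicase subunit, by 0.08 (-0.11 to 0.27) and Cdc6, an origin licensing factor, by 0.37 (0.12 to 0.63, adjusted p = 0.32).

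Mitotic genes lay lower with APAP, although only 2 passed the test. Of 41 measured, these 2 fell, against 0.166% of all genes, and none rose. All 41 differences lay below 0, as did 38.9% over all genes. At an unadjusted p under 0.05 in limma 30 were lower, against 2.22% of all genes. The median difference was -0.36, and in 33 of 41 all APAP arrays lay below all AMAP arrays, against 4.7% of all genes. Kif18a, a kinesin that aligns chromosomes, read 7.84, 7.97 and 7.77 with APAP, against 8.57, 9.05 and 8.50 with AMAP and 8.66, 8.95 and 8.74 in control (-0.85 ± 0.16, adjusted p = 0.00799). Kif20b, a kinesin of cytokinesis, read 9.33, 9.27 and 9.33 with APAP, against 9.82, 9.95 and 9.75 with AMAP and 9.79, 9.86 and 9.99 in control (-0.53 ± 0.09, adjusted p = 0.00145). For both kinesins AMAP and control arrays overlapped and APAP arrays lay below. Leaving out APAP array 32 or AMAP array 31 left 1 of the 2 calls, and leaving out AMAP array 32 gave 4. No mitotic gene was called without all arrays of number 30 or without those of 31, and 4 were with the number as a fixed or as a random block. Of the others, Sgo2a, a protector of centromeric cohesion, differed by -0.55 (adjusted p = 0.076), Cenpe, a kinetochore motor, by -0.56 (0.085), the kinase Aurka by -0.59 (0.38) and the kinase Plk1 by -0.56 (0.43).

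Several of the remaining lower genes are also known from cell division, although they were on no list and are named because they were called. Prr11, a proline-rich cell cycle protein, read 8.41, 8.44 and 8.24 with APAP, against 9.12, 9.58 and 9.11 with AMAP and 9.16, 9.43 and 9.39 in control (-0.91 ± 0.17, adjusted p = 0.0126). The ubiquitin ligase gene G2e3 read 8.03, 8.15 and 8.13 with APAP, against 8.84, 9.03 and 8.64 with AMAP and 8.75, 9.03 and 8.90 in control (-0.73 ± 0.11). Bora, an activator of the Aurora A and Polo-like kinases, differed by -0.54, Cdca2, a chromatin phosphatase subunit, by -0.63, Depdc1a by -0.69, the centriolar gene Hyls1 by -0.86 and the centrosomal gene Cep43 by -0.39. Trim59 (-0.61), the transcriptional repressor Hbp1 (-0.52) and Gm6653 (-0.45) were the others beside Ccng2. Since these genes were chosen as called lower, their shared direction is not a further result.

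Ccng2, which encodes a cyclin G linked to cell cycle arrest, differed with the compounds on opposite sides of control. It read 9.07, 9.00 and 9.21 with APAP, against 9.67, 9.94 and 9.77 with AMAP and 9.43, 9.43 and 9.47 in control (-0.70 ± 0.14, adjusted p = 0.0155). All APAP arrays lay below and all AMAP arrays above the control arrays, although neither difference from control passed the test (APAP -0.35, adjusted p = 0.38; AMAP 0.35, adjusted p = 0.59). The Ccng2 call was lost without APAP array 30, APAP array 31 or AMAP array 31, at differences of -0.69, -0.66 and -0.63. Over the 33 lower genes the median difference from control was -0.91 with APAP and 0.04 with AMAP, both measured against the same control arrays. The genes were chosen on these same APAP and AMAP arrays, which shapes both medians.

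Immediate early genes were the largest group among the genes that rose with APAP relative to AMAP. Of 35 measured, 7 rose, against 0.0953% of all genes, and none fell, with a median difference of 0.17. The 7 were 4 transcription factor genes (Atf3, Jun, Egr1 and Fos) and 3 regulators of growth, RNA decay and kinase signalling (Btg2, Zfp36 and Dusp1). Atf3, a stress-induced repressor of the ATF/CREB family, read 10.08, 10.55 and 10.70 with APAP, against 8.97, 9.39 and 8.92 with AMAP and 8.61, 8.94 and 8.38 in control, and was 2.54-fold higher (1.35 ± 0.24, adjusted p = 0.0053). The AP-1 subunit gene Jun read 10.25, 10.86 and 10.82 with APAP, against 9.22, 9.90 and 9.25 with AMAP and 9.14, 9.61 and 9.18 in control (1.18 ± 0.21, adjusted p = 0.00573). For both genes every APAP array lay above every AMAP and control array, and the AMAP array of number 31 was the highest of its group.

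Btg2, an antiproliferative early gene that p53 also raises, had the smallest adjusted p among the genes that rose. It read 10.55, 10.89 and 10.83 with APAP, against 9.44, 9.92 and 9.48 with AMAP and 9.26, 9.59 and 9.30 in control (1.15 ± 0.12, adjusted p = 3.48e-06). Egr1, a zinc finger factor induced by growth factors and stress, read 8.24, 8.71 and 8.68 with APAP, against 7.57, 7.32 and 7.57 with AMAP and 7.19, 6.87 and 7.08 in control (1.06 ± 0.16, adjusted p = 0.000396). All 3 AMAP arrays of Egr1 lay above all control arrays, by a mean of 0.44 that did not pass the test (adjusted p = 0.48), and the APAP arrays lay higher still. Fos, the partner of Jun in AP-1, read 7.61, 8.01 and 7.87 with APAP, against 7.06, 7.13 and 7.24 with AMAP and a mean of 7.02 ± 0.28 (SD) in control (0.69 ± 0.12, adjusted p = 0.0039). Zfp36, which speeds decay of cytokine messages, differed by 0.54 (adjusted p = 0.0258), with means of 8.84 with APAP, 8.31 with AMAP and 7.99 in control.

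Dusp1, the phosphatase that switches MAP kinases off, was the one called gene among 18 MAP kinase feedback genes. Over all genes 0.0953% were called higher. It read 11.27, 11.87 and 11.59 with APAP, against 10.44, 11.16 and 10.57 with AMAP and 10.64, 11.19 and 10.62 in control. All APAP arrays lay above all AMAP arrays, with a difference of 0.85 ± 0.18 (adjusted p = 0.0403), and the AMAP mean was -0.09 from control. The Dusp1 call was lost without APAP array 31 or 32 or AMAP array 30 or 32, at differences of 0.70, 0.84, 0.71 and 0.77. It was also lost with centred arrays (adjusted p = 0.062), with a trended and robust prior (adjusted p = 0.11) and with only the 9 arrays of 2 h (adjusted p = 0.23). The promoters of Btg2 and Dusp1 are printed because they were the only ones among 17 promoters of the genes that rose to hold the cyclic AMP response element TGACGTCA, the site known for factors of the ATF/CREB family, which the capitals mark. They lie at chr1:134079156-134079405 and chr17:26508473-26508722, both on the minus strand (RefSeq, GRCm38.p6), printed 5′ to 3′ along the gene.
Btg2: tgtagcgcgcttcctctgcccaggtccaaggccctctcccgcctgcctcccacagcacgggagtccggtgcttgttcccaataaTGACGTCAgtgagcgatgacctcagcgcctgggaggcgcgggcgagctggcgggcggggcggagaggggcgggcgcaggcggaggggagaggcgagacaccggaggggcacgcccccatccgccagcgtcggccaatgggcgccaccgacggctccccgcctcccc
Dusp1: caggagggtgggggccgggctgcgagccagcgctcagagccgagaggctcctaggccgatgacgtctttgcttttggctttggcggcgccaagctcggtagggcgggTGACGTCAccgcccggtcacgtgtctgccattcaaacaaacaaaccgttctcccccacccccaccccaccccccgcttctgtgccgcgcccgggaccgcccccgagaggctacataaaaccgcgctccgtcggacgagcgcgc
The element ends 159 bases before the start in Btg2 and 136 in Dusp1, and 1.62% of all mouse promoters of this length held it. The promoter of H4c8, a histone gene that fell, held it too. Whether any factor bound there was not measured.

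Other members of the class did not pass the test. Nr4a1, an orphan nuclear receptor gene, read 8.70, 8.92 and 9.13 with APAP, against 9.00, 8.57 and 9.27 with AMAP and 8.53, 7.92 and 8.71 in control. The compounds overlapped for Nr4a1 and differed by -0.03, with an interval from -0.37 to 0.31. Myc, a transcription factor gene of cell growth, lay below control with both compounds, at means of 10.58 with APAP, 10.34 with AMAP and 10.87 in control, and differed by 0.25 (-0.07 to 0.57). Junb (0.24), Ier3 (0.31) and Fosl1 (0.17) did not pass the test. The number of early genes called fell to 2 without APAP array 31 and to 3 without APAP array 32, and the calls of Atf3 and Jun were among those lost, at differences of at least 1.22 and 1.08. Btg2 kept its call in each fit that left out 1 array, and so did Egr1. Egr1 lost its call without all arrays of number 31 and without those of 32, whereas Btg2 kept its call there.

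**Figure D3:**
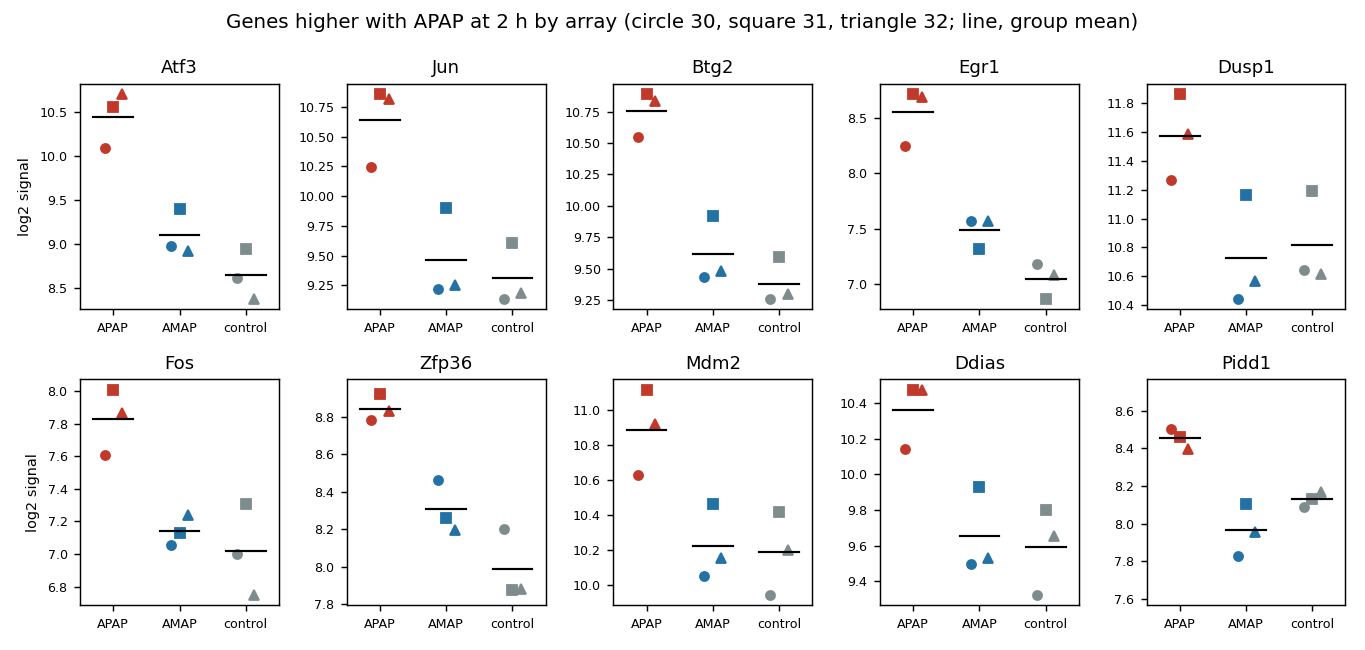
Log2 signal of 10 genes called higher with APAP on each array at 2 h for APAP, AMAP and control (circle, number 30; square, 31; triangle, 32; line, group mean; each panel has its own scale). The 3 APAP arrays lie above the 3 AMAP arrays in every panel, for Btg2 at 10.55 to 10.89 against 9.44 to 9.92.

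No gene of the MAP kinase cascades passed the test. Of 38 genes none was called, against 0.261% of all genes, and the median difference was -0.05. At that share, no call in a list of this size does not set it apart. Mapk8, Mapk9 and Mapk14, which encode 2 JNK kinases and p38 alpha, differed by -0.10 (-0.27 to 0.07), -0.07 (-0.23 to 0.10) and -0.03 (-0.21 to 0.15). Gadd45b, an activator of the p38 and JNK route, differed by 0.53 (0.19 to 0.87, adjusted p = 0.29). Among feedback genes Dusp6, an ERK phosphatase, differed by -0.19 and Spred2, an inhibitor of Ras signalling, by -0.39, neither past the test. Tgfa, the mouse gene of transforming growth factor alpha, read 9.41, 9.27 and 9.41 with APAP, against 9.36, 9.11 and 9.14 with AMAP and 9.52, 9.20 and 9.35 in control. No EGF receptor axis gene was called among 10, against 0.261% of all genes. Whether the array distinguishes the transgene from the endogenous gene is not known from the files.

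Among p53 targets Mdm2 and Btg2, already described as an early gene, rose with APAP. Of 29 measured, these 2 rose, against 0.0953% of all genes, and none fell. The median difference was 0.22, and in 13 all APAP arrays lay above all AMAP arrays, against 9.7% of all genes. Mdm2, the ubiquitin ligase that restrains p53, read 10.63, 11.11 and 10.92 with APAP, against 10.05, 10.46 and 10.16 with AMAP and 9.95, 10.42 and 10.20 in control (0.66 ± 0.14, adjusted p = 0.0261). AMAP and control arrays of Mdm2 lay at the same levels number by number, and its call was lost in 4 of the 6 fits that left out 1 array, at differences between 0.55 and 0.65. Plk3 (0.54, adjusted p = 0.069), the death gene Pmaip1 (0.43, adjusted p = 0.071) and Plk2 (0.82, adjusted p = 0.11) did not pass the test, with no overlap between APAP and AMAP arrays. The death gene Bbc3 differed by 0.31 and the membrane protein gene Phlda3 by 0.55, while Sesn1, a regulator of growth signalling, differed by -0.02 (-0.20 to 0.15). The count of p53 targets called higher was 5 with the number as a fixed block, 7 with it as a random block and 10 with array weights. Trp53, Cdkn1a, Bax and Gdf15 were not analysed here.

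Further genes that rose lay outside the gene lists, and some of them are known from the p53 response. Pidd1, a death domain protein gene, read 8.51, 8.46 and 8.40 with APAP, against 7.83, 8.11 and 7.96 with AMAP and 8.09, 8.13 and 8.17 in control (0.49 ± 0.10, adjusted p = 0.0144). Slc19a2, a thiamine transporter gene, read 10.60, 10.71 and 10.70 with APAP, against 9.97, 10.39 and 10.21 with AMAP and 9.95, 10.15 and 10.13 in control (0.48 ± 0.09, adjusted p = 0.0123). Ddias, named for suppressing apoptosis after DNA damage, rose by 0.71, Inka2, a kinase inhibitor gene, by 0.64 and Ddit4l, an inhibitor of mTOR signalling, by 0.57. The smaller increases were those of Gnb1l (0.42), Pear1 (0.37), Ficd (0.36), Col14a1 (0.34) and Pomgnt2 (0.31). Pear1, Ficd, Col14a1 and Pomgnt2 each kept their call in at most 11 of 22 other settings, and their APAP and AMAP means lay on opposite sides of the control mean. Among the other genes that rose, Gnb1l, Inka2, Ddit4l, Dlx1 and the early gene Zfp36 also kept their call in at most 11 of the 22.

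Dlx1 alone among the called genes differed from control with AMAP and not with APAP. This homeobox gene read 8.97, 9.32 and 9.26 with APAP, against 8.58, 8.83 and 8.63 with AMAP and 9.35, 9.57 and 9.53 in control. The APAP mean was -0.30 from control (adjusted p = 0.28) and the AMAP mean -0.80 (adjusted p = 0.0008), with all AMAP arrays below the others, and the difference between the compounds was 0.50 ± 0.11 (adjusted p = 0.0299). It was lost without APAP array 31 or 32 or AMAP array 30 or 32, at differences of 0.43, 0.46, 0.45 and 0.47. Over the 19 genes that rose, the median difference from control was 0.70 with APAP and 0.03 with AMAP. Those genes were chosen by their difference between the same APAP and AMAP arrays, which shapes both medians.

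No difference between the compounds was detected in the NRF2 and glutathione genes, the defence against electrophiles. None of 34 was called, none was past even an unadjusted p of 0.05, where 9.33% of all genes were, and the median difference was -0.01. Hmox1, which degrades haem, read 8.91, 9.06 and 8.98 with APAP, against 8.92, 9.10 and 8.96 with AMAP and 8.96, 8.89 and 9.09 in control, so that all 3 groups overlapped and the interval ran from -0.23 to 0.21. Srxn1, which repairs oxidised peroxiredoxins, differed by -0.12 (-0.34 to 0.10), Gclc, the catalytic subunit of glutathione synthesis, by -0.05 (-0.27 to 0.17) and Nqo1, a quinone reductase, by 0.17 (-0.09 to 0.43) at a dim signal. The mean of Gclc was -0.11 from control with APAP and -0.06 with AMAP, and those of Hmox1 and Srxn1 lay closer or equally close to control. Slc7a11, the cystine transporter gene, was too variable to judge, with 8.20, 9.26 and 9.52 with APAP, against 8.44, 9.62 and 9.29 with AMAP (interval -0.83 to 0.58).

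Amino acid stress genes governed by ATF4 gave no call among 30, against 0.261% of all genes, with a median difference of 0.00. Chac1, a glutathione-degrading enzyme gene, read 8.76, 8.92 and 9.22 with APAP, against 8.83, 9.06 and 9.25 with AMAP and 8.07, 8.26 and 8.24 in control. Every array of either compound lay above control for Chac1 (0.78 with APAP, adjusted p = 0.0033; 0.86 with AMAP, adjusted p = 0.0063), and the compounds differed by -0.08 (-0.37 to 0.21). Atf4 itself differed by -0.01 (-0.24 to 0.23) and Ddit3, a transcription factor of stress, by 0.11 (-0.23 to 0.45). Outside this list Gadd45a, a growth arrest gene known as a p53 target and an activator of p38 and JNK signalling, read 9.57, 9.87 and 9.95 with APAP, against 9.53, 9.78 and 9.58 with AMAP and 9.03, 8.98 and 8.98 in control, with 0.17 between the compounds (-0.20 to 0.53). Sesn2, which is raised by both ATF4 and p53, leaned towards APAP at 0.56 (adjusted p = 0.21).

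Of 12 transcription elongation genes none differed between the compounds at the adjusted threshold, where 0.261% of all genes did. Their median difference was -0.08, and their median differences from control were 0.02 with APAP and 0.08 with AMAP. Hexim1, an inhibitor of the elongation kinase P-TEFb, read 10.78, 11.19 and 11.01 with APAP, against 10.74, 10.93 and 10.80 with AMAP and 9.90, 10.35 and 10.36 in control. Its difference between compounds was 0.17 (-0.12 to 0.46), against 0.79 from control with APAP (adjusted p = 0.003) and 0.62 with AMAP (adjusted p = 0.085). Mepce, which caps the RNA that holds this inhibitor, differed between the compounds by -0.22 (-0.40 to -0.03, adjusted p = 0.46) and from control by 0.27 with APAP (adjusted p = 0.24) and 0.49 with AMAP (adjusted p = 0.016).

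**Figure D4:**
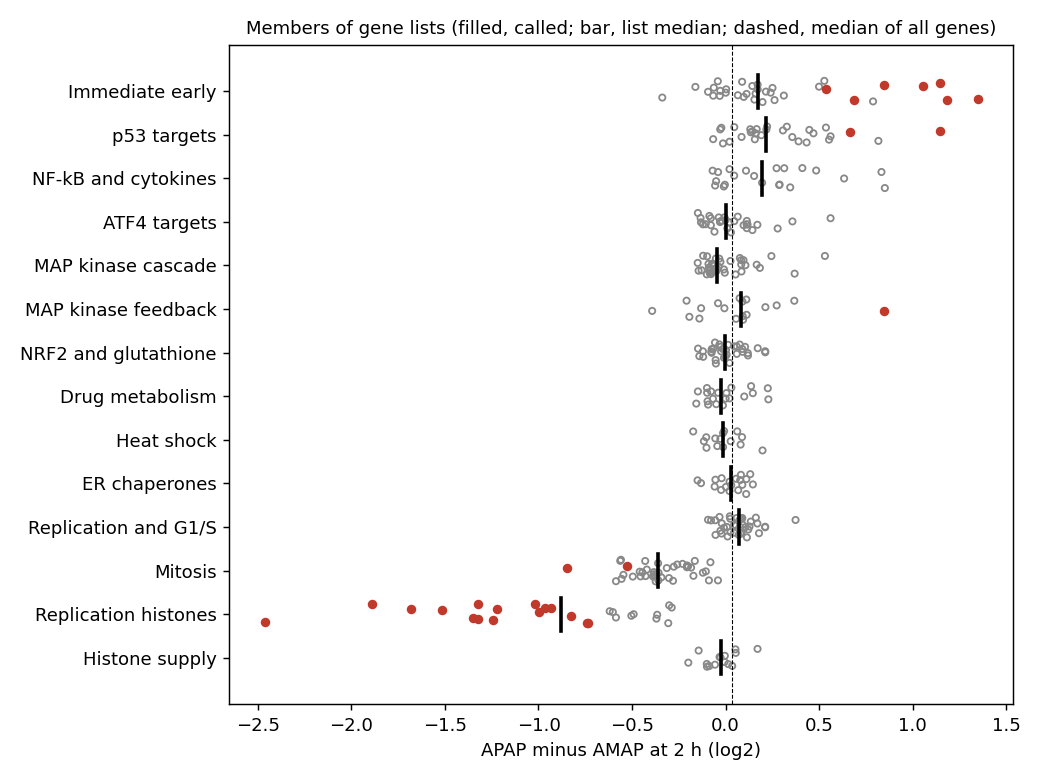
Difference between APAP and AMAP at 2 h (log2, horizontal axis) for each measured member of 14 gene lists; filled points are called genes, thick bars list medians, and the dashed line the median of all genes at 0.03. Replication histones (median -0.88) and mitotic genes (median -0.36) lie to the left, and the NRF2, ATF4, heat shock and chaperone lists lie around 0.

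Cytokine genes gave no call. Of 21 NF-kB and cytokine genes none passed the test, where 0.261% of all genes did. The median difference was 0.19, and in 10 all APAP arrays lay above all AMAP arrays, against 9.7% of all genes. The chemokine genes Cxcl1 (0.83, adjusted p = 0.14) and Cxcl2 (0.85, adjusted p = 0.47) and the cytokine gene Lif (0.63, adjusted p = 0.091) were the largest. Lif read 8.45, 8.52 and 8.79 with APAP, against 7.94, 7.97 and 7.96 with AMAP and 8.39, 8.24 and 8.39 in control. Its APAP arrays lay above control (0.25, adjusted p = 0.67) and its AMAP arrays below (-0.38, adjusted p = 0.60). Ccn1, a target of YAP, read 10.73, 11.52 and 10.68 with APAP, against 9.92, 10.76 and 9.89 with AMAP (0.79, adjusted p = 0.29), and Bambi, a receptor decoy of TGF-beta signalling, differed by 0.32 (adjusted p = 0.064).

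The other gene groups gave no call between the compounds, where 0.261% of all genes were called. These were drug metabolism (20 genes, median difference -0.03), heat shock (15, -0.01), endoplasmic reticulum chaperones (19, 0.03), ribosome biogenesis (27, -0.04), cholesterol synthesis (19, 0.05), circadian genes (15, -0.03), the BCL2 family (14, 0.06) and alpha-arrestins (5, 0.01). Cyp2e1, the main oxidase of APAP in liver, was dim, at 5.24, 5.08 and 5.11 with APAP, against 5.02, 4.97 and 5.02 with AMAP and 5.19, 5.29 and 5.14 in control. Per1, a clock gene that is also an early gene, differed by -0.34 (-0.52 to -0.15, adjusted p = 0.15). Txnip, a glucose-responsive arrestin, differed by 0.25 with an interval from -0.22 to 0.72.

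Hepatocyte markers gave no call between the compounds. None of 24 was called, against 0.261% of all genes, and the median difference was 0.07. Alb, the gene of serum albumin, averaged 13.6 on APAP arrays and differed by 0.05, and the liver transcription factor gene Hnf4a averaged 10.7 and differed by 0.06. Of 14 leukocyte, 11 endothelial, 14 stellate and 7 biliary or progenitor markers none was called, with median differences of 0.08, 0.11, 0.07 and -0.01. The defining leukocyte gene Ptprc averaged 5.9 and the endothelial gene Pecam1 6.0 on APAP arrays, below the array medians. The progenitor genes Afp, at 12.1, and Krt7, at 10.4, were bright. Vim, on the stellate list, was bright too, at 12.9. The 14 stellate markers, however, had a median of 6.89 with APAP, also below the array medians. Tek, an endothelial receptor gene with a dim signal, differed by 0.44 (adjusted p = 0.062), and the part of dim genes such as this in the positive median of all genes was not tested. With bulk RNA, fewer cells of a kind and less message per cell cannot be told apart.

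The same comparison at 6 and 24 h rests on other arrays. There 141 genes (0.707%) and 928 genes (4.65%) were called. Of the 33 genes lower at 2 h, 11 were called lower at 6 h (33.3% of the 33, and 23.9% of the 46 called lower there) and 10 at 24 h (30.3% of the 33, and 1.80% of the 555 called lower there, 2.78% of all genes). Of the 19 higher genes, 10 were called higher at 6 h (52.6% of the 19, and 10.5% of 95) and 11 at 24 h (57.9% of the 19, and 2.95% of the 373 called higher there, 1.87% of all genes). At 6 h 32 of the 33 lower and all 19 higher genes lay on the same side as at 2 h, and at 24 h 29 and 18 did, where 53.4% of all genes lay below and 46.6% above 0 at 6 h, and 45% below and 55% above 0 at 24 h. The median difference of the lower genes was -0.86 at 2 h, -0.36 at 6 h and -0.24 at 24 h. That of the higher genes was 0.57, 0.54 and 0.75. Since the 52 genes were chosen at 2 h, the smaller later medians are not by themselves a test of a decline.

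The differences of some histone genes called at 2 h were smaller at the later times. Choosing genes by large differences on the 2 h arrays favours such a change, since the same arrays enter its test. H2ac4 differed by -2.46 at 2 h, -1.11 at 6 h and -0.84 at 24 h, and the change by 24 h was tested as 1.62 ± 0.29 (adjusted p = 0.0061). H4c6 differed by -1.32, -0.33 and -0.25 at these times, with a change of 1.07 ± 0.21 by 24 h (adjusted p = 0.013). H1f5 differed by -1.51, -1.03 and -1.49, and its change of 0.03 ± 0.26 did not pass the test. Mdm2 differed by 0.66, 0.93 and 1.49, and Ddias by 0.71, 0.89 and 1.36, but their changes by 24 h did not pass the test (0.83 ± 0.19, adjusted p = 0.051, and 0.65 ± 0.20, adjusted p = 0.19). Atf3 differed by 1.35, 1.84 and 1.86, whereas Egr1 (1.06, 0.52 and 0.44) and Fos (0.69, 0.20 and 0.34) were called at 2 h and at neither later time, with changes by 24 h of -0.62 and -0.35 that did not pass the test either. The early and the late differences of Egr1 and Fos are therefore not shown to differ.

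Between 2 and 6 h no gene's difference changed at the adjusted threshold in limma, where 1144 genes had an unadjusted p under 0.05 (5.74%) and the smallest adjusted p was 0.18. Between 2 and 24 h the difference changed in 97 genes (0.487%). Of the 52 genes called at 2 h, 12 were among these 97, namely 10 histone genes, Ccng2 and Cep43, and all 12 moved towards 0 or past it. Both choices used the same 2 h arrays, which favours a move towards 0, so that shared direction is not a further result.

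**Figure D5:**
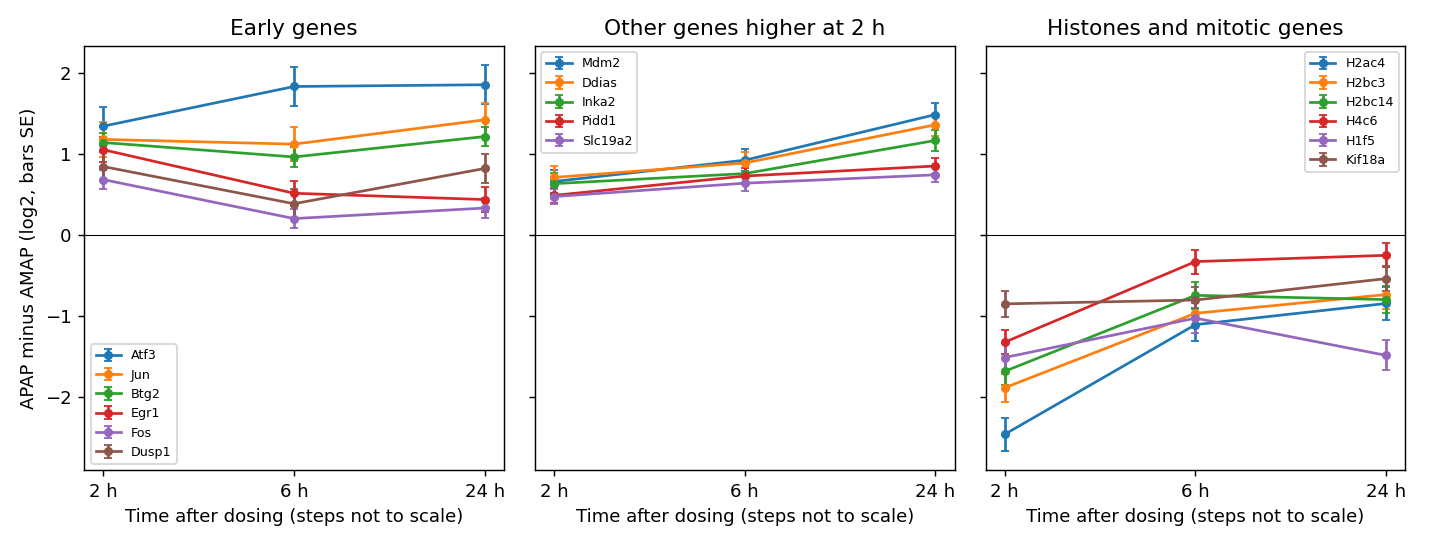
Difference between APAP and AMAP (log2, vertical axis; bars, standard error) at 2, 6 and 24 h for 17 genes called at 2 h; times are spaced evenly, not to scale. The histone H2ac4 lies at -2.46 at 2 h and at -0.84 at 24 h, while Mdm2 lies at 0.66 at 2 h and at 1.49 at 24 h.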

How the data were processed

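Total RNA of TAMH cultures was hybridised to 27 Affymetrix Mouse Gene 1.0 ST arrays. The deposited table holds 1 log2 signal per probe set and array, made by the authors with RMA in Affymetrix Expression Console 1.1, per the submitters' processing notes. RMA equalises array distributions, so differences are relative to the bulk of genes, and scanner files and detection calls were not analysed here. Genes were named through the platform's annotation: of 35557 probe sets 21789 have 1 gene symbol, 1621 several and 12147 none. Of genes with more than 1 probe set (999) the brightest was kept, which gave 19938 genes, with no filter on dim ones.

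A model of 9 group means over all 27 arrays was fitted with limma 3.58.1 in R 4.3.3 (18 residual degrees of freedom, moderated variances with 7.30 prior degrees of freedom). Tests were two-sided, and a gene counted as called when its p, adjusted by Benjamini and Hochberg's method over all genes of a comparison, was under 0.05. Intervals are 95% intervals of this model. The number of arrays limits the precision: a permutation test of 3 against 3 arrays cannot give a p below 0.10. The pipeline was tested on simulated data.

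Of 607 entries in 28 gene lists 42 were not matched by symbol. The compounds, lists and tests were chosen with earlier results of these data known. The naming rule took the 12 largest increases and decreases among called genes whose arrays did not overlap and whose mean was at least 6 in the higher group, up to 4 genes per list with the smallest p, a panel, and the 3 largest changes each way between times. The other called genes, the remaining histone genes and further list members were named after their values were seen. Whether the numbers 30, 31 and 32 pair arrays was checked from correlations of deviations from group means, which were 0.29, 0.12 and 0.08 at 2 h, 0.25, 0.32 and 0.43 at 6 h, and 0.21, 0.47 and 0.29 at 24 h. The labels do not say what the numbers are, and as 1 pair at 2 h was under 0.1 they were not taken to pair the arrays of that comparison. Promoters came from RefSeq tables (GRCm38.p6). Alternatives were a block for the number, fits on fewer arrays, another prior, array weights, other scalings, a filter on dim genes, other choices of probe set, a 2-fold minimum, joint adjustment over times and leaving out arrays.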

Additional observations from a re-analysis of the deposited data

Results flagged for a closer look

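The difference between APAP and AMAP at 24 h differed from that at 2 h in 97 genes at an adjusted p under 0.05 (limma), 51 upwards and 46 downwards. Among genes called at 2 h the histone differences that changed were smaller at 24 h, a direction that choosing the genes at 2 h favours. The change was 1.62 for H2ac4, 1.15 for H2bc3, 1.07 for H4c6, 0.90 for H2ac15, 0.88 for H4f16, 0.88 for H4c8, 0.82 for H2aw, 0.80 for H4c3, 0.79 for H4c4 and 0.72 for H4c14. Ccng2 changed by 0.87 and Cep43 by 0.42, both lower with APAP at 2 h and close to equal at 24 h (0.17 and 0.03).

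The other changes named were of genes that hardly differed at 2 h. Ces2e, a carboxylesterase gene, changed by 1.29 and Gria3, a glutamate receptor gene, by 1.38, both higher with APAP at 24 h. Enzymes of cholesterol synthesis shifted towards lower with APAP, with changes of -0.85 for Fdps, -1.06 for Hmgcs1, -1.10 for Lss and -1.01 for Pmvk. Pnpla3, a lipid droplet protein gene, changed by -1.15. The 97 calls dropped to 3, 9 and 24 without all arrays of number 30, 31 or 32.

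Probe sets that list several genes were outside the gene-wise comparison. Of those whose listed genes are all histones, 25 were called lower with APAP, as described above. The group means of the 25 called ran from 8.08 to 12.3 with APAP, from 8.85 to 13.2 with AMAP and from 8.80 to 13.3 in control. Of the 12147 probe sets with no symbol 22 were called lower and 4 higher, where 0.222% and 0.0562% of all 35557 probe sets were. Neither share lay above that over all probe sets.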

How the results depend on the processing

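Of 1195 recomputed values of the called genes 915 kept the call and 280 lost it. None reversed, but leaving out arrays could not have reversed any, since APAP and AMAP arrays did not overlap in all 52 genes. Several other settings leave the difference itself unchanged, so the lack of reversals is not support for the directions. Called in all 22 settings other than the 2-fold minimum were 14 histone genes and Btg2. The 52 calls became 104 with the replicate number as a random block within time, 132 with array weights, 101 with joint adjustment over the 3 times, 16 with a 2-fold minimum and 99 over every probe set, and 20 to 80 with arrays left out. The numbers were not taken to pair the arrays, though 5 of 6 arrays at 2 h correlated best with their own number. With the number as a fixed replicate block 70 genes were called, and 55 within the 6 arrays alone. The 97 changes between 2 and 24 h became 166 with the fixed and 227 with the random replicate block, 223 with array weights, and 3 to 80 with arrays left out, where APAP array 30 left 47, APAP array 32 left 64 and AMAP array 32 left 51. The 0 changes between 2 and 6 h stayed 0 in each alternative run. The causes were not tested.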
